A study of Mus musculus with 8 samples.

Results

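The miR-200 family was examined in mouse kidney through 8 mature miRNAs, the 3p arms of miR-200a, miR-200b, miR-429, miR-200c and miR-141 and the 5p arms of miR-200a, miR-200b and miR-141. They were picked by name from the 1023 mouse miRNAs of an Agilent one-colour (Cy3) miRNA array, and all 8 were found, with 21 probes between them. Total RNA of the whole kidney came from mice of the outbred CD-1 stock. Control mice were given physiological serum (4 arrays). Treated mice were given tacrolimus, a calcineurin inhibitor used against transplant rejection, for 28 days at a daily dose of 1 mg per kg (4 arrays). The labels name no transgene or further agent in either group and leave unsaid whether replicates are different mice, so the p-values reflect spread among these arrays only, and that spread may be technical. In RNA of a whole organ, fewer epithelial cells and less miRNA per cell cannot be told apart.

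The miR-200 family is made by epithelial cells and is scarce in mesenchyme. Its members are known for repressing Zeb1 and Zeb2, transcription factors that shut off E-cadherin, and Zeb1 and Zeb2 in turn repress the miR-200 genes, so that loss of the family accompanies the shift of epithelium towards a mesenchymal state studied in kidney fibrosis. In the kidney these miRNAs are found in tubule epithelium. The genes form a pair of clusters, each made as a common primary transcript.

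The family was laid out by cluster and by seed, since these groupings cross each other. Mir200b, Mir200a and Mir429 lie on the minus strand of chromosome 4 within 1846 bases, and Mir200c and Mir141 on the minus strand of chromosome 6 within 477 bases (RefSeq, GRCm38.p6). The array design places its 13 probes for members of the first cluster at chr4:155428068-155429855 and its 8 probes for the second at chr6:124667943-124668406 (mm9). In that mapping the 5p probes of each of 3 hairpins lie below the 3p probes, the reverse of their order in RefSeq, so positions are given for clusters only. In RefSeq the long noncoding RNA gene Gm13648 overlaps the chromosome 4 cluster, while the chromosome 6 cluster overlaps no other gene and lies between Phb2 and Ptpn6. The mature sequences follow (RefSeq, 8 of 8 matched; mmu marks mouse and is left off elsewhere), with the seed, bases 2 to 8, in capitals, since the seed sets which targets a miRNA recognizes.
mmu-miR-200b-3p: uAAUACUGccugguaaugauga
mmu-miR-429-3p: uAAUACUGucugguaaugccgu
mmu-miR-200c-3p: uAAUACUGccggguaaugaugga
mmu-miR-200a-3p: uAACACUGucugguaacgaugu
mmu-miR-141-3p: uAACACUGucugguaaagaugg
mmu-miR-200b-5p: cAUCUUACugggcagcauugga
mmu-miR-200a-5p: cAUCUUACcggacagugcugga
mmu-miR-141-5p: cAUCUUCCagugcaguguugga

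The 3p arms carried 2 seeds, AAUACUG in 3 members and AACACUG in 2, and each cluster held both. The 5p arms of miR-200a and miR-200b shared the seed AUCUUAC, and that of miR-141-5p was AUCUUCC. Aligned from their 5′ ends without gaps, any pair of 3p members was identical at 17 to 20 of 22 positions, with the closest matches lying across clusters, at 20 positions each for miR-200b-3p with miR-200c-3p and for miR-200a-3p with miR-141-3p. The 5p arms were identical at 17 positions in each of their 3 pairs. The hairpin of miR-200b shows how both arms come from the same precursor, with the 5p and then the 3p arm in capitals.
Mir200b: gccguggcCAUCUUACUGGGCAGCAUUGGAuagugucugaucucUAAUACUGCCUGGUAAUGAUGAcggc

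Because the 3p members are so alike, the letters that separate them on the array matter for reading their signals. Every probe pairs with the 3′ portion of its miRNA. The brightest probe of each 3p member is shown 5′ to 3′. Capitals mark the bases that are not complementary to its nearest relative in the family. A G facing U, or a T facing G, counts as not complementary.
miR-200b-3p probe: TcatcattaccAggcag
miR-200c-3p probe: TCcatcattaccCggc
miR-200a-3p probe: AcatcGttaccagacagt
miR-141-3p probe: CcatcTttaccagacag
miR-429-3p probe: acGGcAttaccagacagt
Between miR-200a-3p and miR-141-3p, 2 bases of the probe were not complementary in either direction. The miR-200b-3p probe had 2 such bases on miR-200c-3p, the miR-200c-3p probe 3 on miR-200b-3p, and the miR-429-3p probe 3 on miR-200a-3p. The share of signal that a probe takes from a relative was not tested, and the values of close relatives are uncertain as separate measurements to that extent.

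The 5 members of the 3p arm were well measured. Each had 2 probes of 20 spots, of which 14 to 20 were kept per array, and all 10 probes were detected on all 8 arrays. Spots of a probe varied by 3.26% to 8.30% within an array (median coefficient of variation). The error this leaves on a probe mean, 0.011 to 0.027 on the log2 scale, was below the SD between arrays of a group, 0.058 to 0.166. Signals are given below as log2 of the brightest probe's intensity relative to the same array's 75th percentile over the 252 probes detected on all 8 arrays, which stands at 0 and equalizes the arrays. Levels of different probes are not set against each other.

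The chromosome 4 cluster had nearly the same 3p signals in control and tacrolimus kidneys. miR-200b-3p, which targets Zeb1 and Zeb2, stood at 1.50, 1.35, 1.47 and 1.36 in the control arrays 1 to 4 and at 1.43, 1.35, 1.38 and 1.38 in the tacrolimus arrays 1 to 4. The tacrolimus values lay inside the control range, and the means were 1.42 ± 0.08 and 1.38 ± 0.03 (SD, n = 4 each). miR-429-3p, its partner in seed and cluster, stood at 0.44, 0.25, 0.45 and 0.22 in control and at 0.35, 0.37, 0.34 and 0.34 in tacrolimus arrays. Here too all tacrolimus values fell between the control arrays, of which 2 were high and 2 low, and the means were 0.34 ± 0.12 and 0.35 ± 0.02 (SD, n = 4 each).

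miR-200a-3p, which carries the other seed, stood at 0.75, 0.61, 0.96 and 0.74 in control arrays and at 0.89, 0.84, 0.82 and 0.83 in tacrolimus arrays. Control 3 exceeded every tacrolimus array and the other three control arrays lay below them all, giving means of 0.77 ± 0.14 and 0.85 ± 0.03 (SD, n = 4 each). The differences, tacrolimus minus control, were -0.04 for miR-200b-3p (SE 0.064), 0.01 for miR-429-3p (SE 0.073) and 0.08 for miR-200a-3p (SE 0.080) on the log2 scale. As ratios these were 0.976, 1.01 and 1.06, with 95% intervals from limma of 0.883 to 1.08, 0.899 to 1.13 and 0.932 to 1.20. The sign for miR-200b-3p turned without scaling, in the authors' deposited table, which is not scaled either, and with quantile normalization. That for miR-429-3p turned with median scaling, quantile normalization, total gene signal and without control 2 or control 4.

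The chromosome 6 cluster stood slightly higher in the tacrolimus means, within the spread of the arrays. miR-141-3p, which has the seed of miR-200a-3p, stood at -1.66, -1.88, -1.69 and -1.53 in control and at -1.47, -1.61, -1.79 and -1.48 in tacrolimus arrays. miR-200c-3p, which has the seed of miR-200b-3p, stood at -2.29, -2.49, -2.35 and -2.19 in control and at -2.17, -2.23, -2.47 and -2.12 in tacrolimus arrays. For both, control 2 was the lowest and control 4 the highest control array, and tacrolimus 3 was the lowest tacrolimus array, lying inside the control range. The means were -1.69 ± 0.14 and -1.59 ± 0.15 for miR-141-3p and -2.33 ± 0.13 and -2.25 ± 0.15 for miR-200c-3p (SD, n = 4 each). The differences were 0.10 (SE 0.099) and 0.08 (SE 0.097), or ratios of 1.07 (95% interval 0.921 to 1.25) and 1.06 (0.911 to 1.23). The sign for miR-200c-3p turned with quantile normalization, at -0.02.

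The 5p arms were dim or undetected. miR-200b-5p stood at -4.75, -4.87, -4.28 and -4.87 in control arrays, all of which detected it, and at -4.98, -4.86, -4.80 and -4.79 in tacrolimus arrays, of which 3 did. Control 3 stood alone above the rest, and the difference of -0.17 (SE 0.130; ratio 0.890, 95% interval 0.726 to 1.09) was -0.03 without control 3. It was 0.03 in the authors' deposited table, which is not scaled. miR-200a-5p was detected on 3 arrays of each group, at -5.45, -5.43, -5.21 and -5.64 in control and -5.35, -5.47, -5.41 and -5.60 in tacrolimus arrays. Its difference was -0.03 (SE 0.098), and these values lay close to the floor of -5.96 set for the weakest detected probes. Its sign turned with the 75th percentile of all probes, without scaling, without control 3, without tacrolimus 4 and without control 1 and tacrolimus 4 together, and in the authors' deposited table, where tacrolimus 4 is listed at 0.1, the difference was -1.29. Of the 7 probes for these 2 arms, the 5 dimmer ones were at the floor on 3 to 8 arrays.

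miR-141-5p was not detected by any of its 4 probes on any array, and the authors' deposited table lists it at 0.1, their value for undetected, on all 8. It has only a bound at the floor in both groups and was not tested. The remaining 5p arms of these hairpins, miR-200c-5p and miR-429-5p, are not among the members and were detected on 0 arrays of either group.

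**Figure D1:**
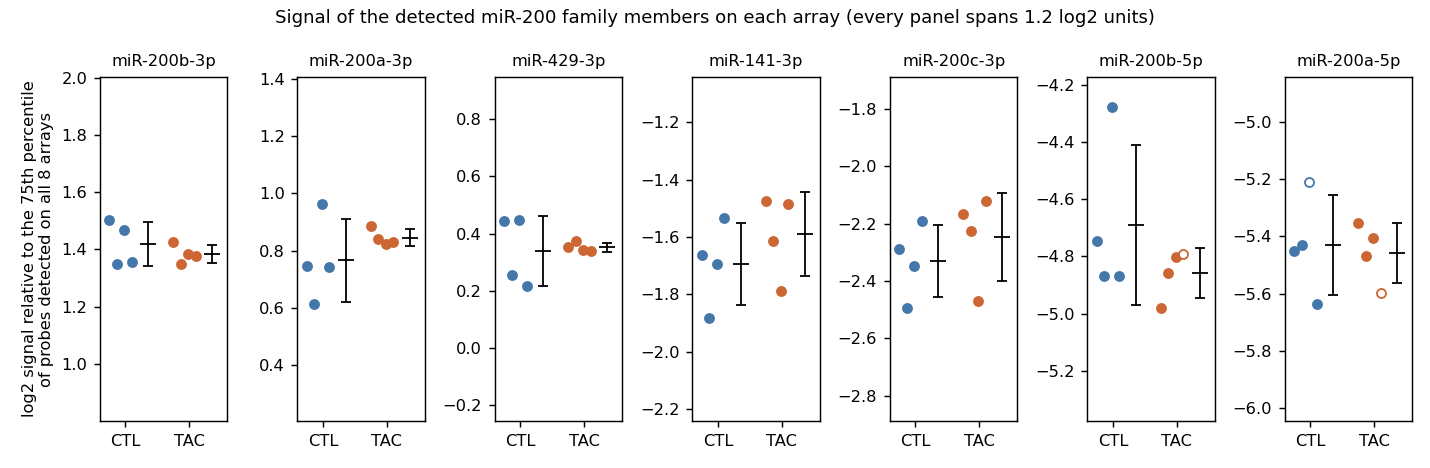
Signal of the 7 detected members on each array (log2 relative to the array's 75th percentile over those 252 probes; blue control, CTL, orange tacrolimus, TAC, in order of replicate; open points not detected; black marks mean ± SD, n = 4), each panel spanning 1.2 log2 units. In every panel the 2 groups overlap. With this scaling the tacrolimus arrays lie closer together than the control arrays for the members of the chromosome 4 cluster, on both arms.

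Of the 8 members, 7 passed the filter on dim miRNAs and 0 passed the test between tacrolimus and control. In the fit over all 194 tested miRNAs, adjusted p-values (limma, Benjamini-Hochberg) of the 7 lay between 0.584 for miR-200b-5p and 0.942 for miR-429-3p. In the same comparison 3.09% of all tested miRNAs were called. None of the 7 had an unadjusted p under 0.05 in limma (0, against 15.5% of all tested miRNAs), and the 4 control and 4 tacrolimus arrays did not separate for any member (0, against 10.3%). The median difference was 0.01 over the 7 members, with 4 above 0 and 3 below, and 0.04 over all tested miRNAs. That family median fell below 0 with median scaling (-0.06), quantile normalization (-0.02), total gene signal (-0.05), without control 2 (-0.02) and without control 4 (-0.03). A p that misses the threshold does not show that levels were equal: over the 7 members the 95% intervals ran from a ratio of 0.726 for miR-200b-5p to one of 1.25 for miR-141-3p.

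The second probes of the 3p members gave the same sign as the brightest in all 5. They differed by -0.08 for miR-200b-3p, 0.01 for miR-429-3p, 0.13 for miR-200a-3p, 0.08 for miR-200c-3p and 0.02 for miR-141-3p. Each second probe is the brightest probe longer or shorter by 1 base, on the same arrays. The probes of a member correlated at 0.774 to 0.968 over the 8 arrays, so the shared sign is not independent evidence of direction. Each column of the slide held 1 control and 1 tacrolimus array. Within columns, miR-141-3p differed by 0.19, 0.27, -0.09 and 0.05, and miR-200a-3p by 0.14, 0.23, -0.14 and 0.09, so that the third column went against the other three in both. Every control array lay in 1 row of the slide and every tacrolimus array in the other, so that row and treatment cannot be told apart.

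**Figure D2:**
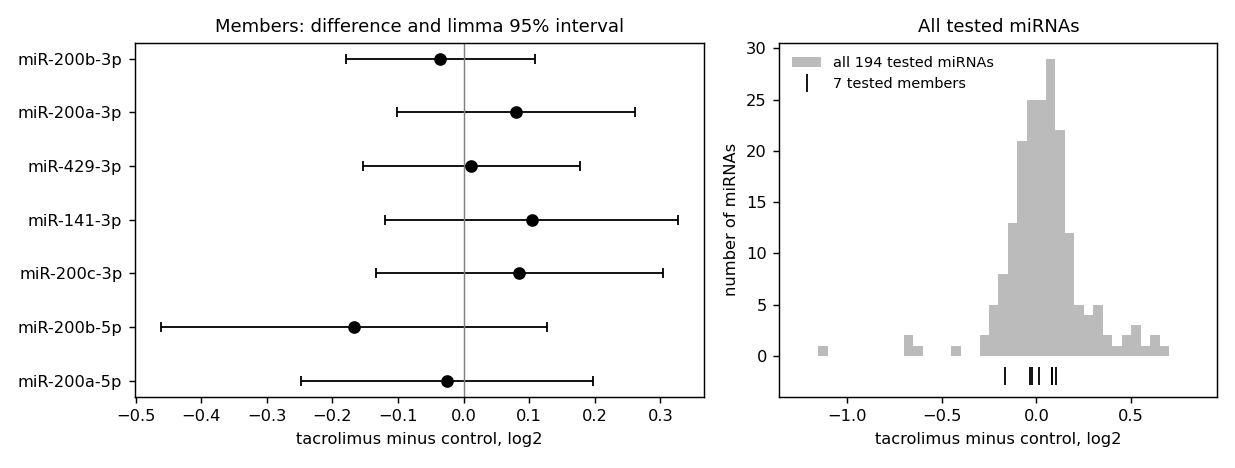
Left, difference of each tested member (tacrolimus minus control, log2; points with 95% intervals from limma, n = 4 arrays each). Right, the same difference for all 194 tested miRNAs as a histogram, with the 7 members as ticks below it. All 7 intervals include 0, and the members run from -0.17 for miR-200b-5p to 0.10 for miR-141-3p.

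The clusters were then compared with each other through their ratio within each array, from which a scaling factor of the array cancels. The mean of the 3p members of the chromosome 4 cluster minus that of the chromosome 6 cluster was 2.87, 2.93, 2.98 and 2.64 in the control arrays and 2.71, 2.77, 2.98 and 2.65 in the tacrolimus arrays. Control 4 and tacrolimus 4 had the lowest ratios of their groups, and the groups overlapped. The ratio differed by -0.08 between groups, less than its SD of 0.15 and 0.14 (n = 4 each), and lay between -0.15 and -0.01 in the 20 settings that gave it. The clusters themselves differed by 0.02 and 0.09.

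Grouping by seed gave a difference of similar size. The mean of miR-200b-3p, miR-429-3p and miR-200c-3p minus that of miR-200a-3p and miR-141-3p was 0.34, 0.34, 0.22 and 0.19 in control and 0.16, 0.22, 0.24 and 0.19 in tacrolimus arrays. Control 1 and control 2 lay above every tacrolimus array, while control 3 and control 4 fell among them. The difference between groups was -0.07, with SDs of 0.08 and 0.03 (n = 4 each), and lay between -0.10 and -0.04 in the 20 settings that gave it. It exceeded its pooled SD of 0.06, while the difference in the cluster ratio was below its pooled SD of 0.15. Without control 1 or without control 2 the seed difference was -0.05, smaller in size than that SD of 0.06. No test was made of the seed or the cluster difference.

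The ratio of the arms could be followed for both hairpins whose arms were detected, though not on every array. The ratios below include control 3 and tacrolimus 4, where miR-200a-5p was not detected, and tacrolimus 4, where miR-200b-5p was not detected. For miR-200a the 3p minus 5p signal was 6.20, 6.04, 6.17 and 6.38 in control and 6.24, 6.31, 6.23 and 6.43 in tacrolimus arrays, a difference of 0.11. For miR-200b it was 6.25, 6.22, 5.75 and 6.22 in control and 6.41, 6.21, 6.18 and 6.17 in tacrolimus arrays, a difference of 0.13, with control 3 apart from the rest. Both differences were below the SD of the control arrays, 0.14 and 0.24, but above that of the tacrolimus arrays, 0.09 and 0.11 (n = 4 each). They were below their pooled SDs of 0.12 and 0.19, and the groups overlapped. For miR-200b it was 0.01 without control 3 and turned to -0.03 with the mean of all probes. For miR-200a it was 0.06 without tacrolimus 4 and 0.10 without control 3, and turned to -0.09 with the 75th percentile of all probes.

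**Figure D3:**
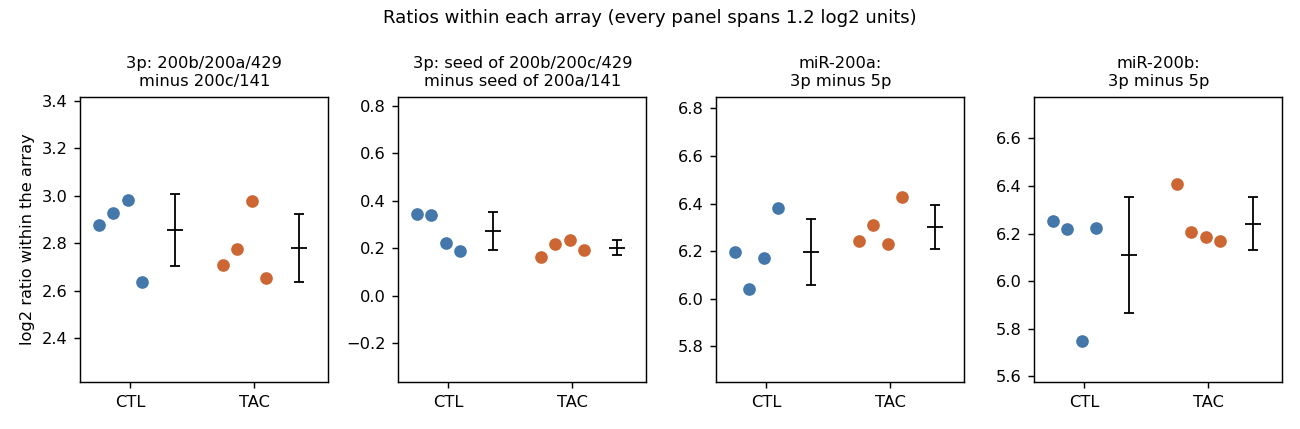
Ratios within each array on the log2 scale (points are arrays in order of replicate, blue control, orange tacrolimus; black marks mean ± SD, n = 4), for the clusters, the seeds and the arms of miR-200a and miR-200b, each panel spanning 1.2 log2 units. The groups overlap in all 4 panels, and control 3 lies apart in the miR-200b panel at 5.75. The 5p arm was not detected on control 3 and tacrolimus 4 for miR-200a, nor on tacrolimus 4 for miR-200b.

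Members of a cluster could also be compared by how they varied from array to array within a group, a comparison that was not planned beforehand. After each group's mean was taken away, miR-200c-3p and miR-141-3p followed each other closely over the 8 arrays (Pearson r = 0.977, exact permutation p = 0.00347 within groups, adjusted p = 0.0347 over the 10 pairs of 3p members; Spearman rho = 0.952, exact p = 0.00347). Without control 2 and tacrolimus 3, the arrays farthest out, r was 0.917, and with the other probe of each it was 0.911. These 2 miRNAs share a cluster but not a seed. The permutation takes arrays as independent, and it does not separate a shared array effect: miR-10b-5p, outside the family, had r = 0.926 with miR-141-3p. The next highest 3p pair was miR-200b-3p with miR-429-3p (r = 0.868, exact permutation p = 0.266, adjusted p = 0.914, rho = 0.810), at 0.403 with their other probes. The pairs of nearest sequence, which lie in different clusters, had r = 0.148 for miR-200b-3p with miR-200c-3p (exact permutation p = 0.781) and r = 0.360 for miR-200a-3p with miR-141-3p (exact permutation p = 0.490). With their other probes these were 0.326 and 0.588, the latter above the 0.403 of miR-200b-3p with miR-429-3p. With the slide column also taken away, which leaves 4 differences between arrays, r was 0.973 for miR-200c-3p with miR-141-3p, 0.564 for miR-200b-3p with miR-200c-3p and 0.966 for miR-200a-3p with miR-141-3p.

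Over the brightest probes, the 4 pairs within a cluster had r of 0.59 to 0.98 and the 6 pairs across clusters r of -0.01 to 0.36, beside a median of 0.15 over all pairs of tested miRNAs. Every pair within a cluster exceeded every pair across clusters in 16 of 23 settings, and this order was lost in the other 7. It held without scaling, in the authors' deposited table and with the 75th percentile of all probes, but there all pairs were high. In these settings the median r was 0.981, 0.990 and 0.993 within clusters and 0.921, 0.949 and 0.964 across them, so the order there shows little separation. With the other probes, pairs within a cluster had r of 0.11 to 0.91 and pairs across clusters r of -0.27 to 0.63. The lowest r within a cluster and the highest across clusters were -0.17 and 0.25 with quantile normalization, 0.38 and 0.50 with the mean of all probes, and 0.56 and 0.98 with the slide column as a block. They were 0.35 and 0.78 without control 3, 0.62 and 0.63 without control 4, and -0.39 and 0.63 over the tacrolimus arrays alone. All pairs share arrays, labelling and scaling, and whether the order reflects the clusters was not tested.

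**Figure D4:**
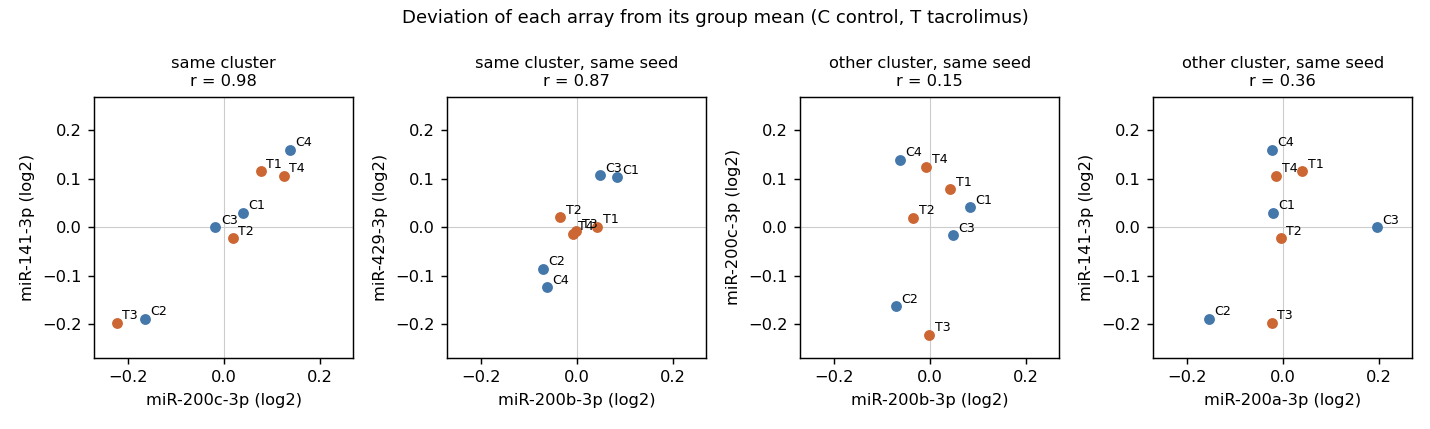
Deviation of each array from its group mean (log2; C control and T tacrolimus with replicate number) for 4 pairs of 3p members. miR-200c-3p and miR-141-3p lie along a line (r = 0.98), whereas miR-200b-3p with miR-200c-3p and miR-200a-3p with miR-141-3p, which share a seed across clusters, lie further from a line (r = 0.15 and 0.36, or 0.56 and 0.97 with the slide column taken away).

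No other listed miRNA of epithelium was called, which is close to the share called of all tested miRNAs. Of those listed for mesenchyme and fibrosis, 4 were called, all of them miR-199 or miR-214. Of 19 listed epithelial miRNAs outside the family, 12 were tested and 0 passed the test in limma, against 3.09% of all tested miRNAs. Their median difference was -0.03, with 5 of the 12 above 0. An unadjusted p under 0.05 in limma was found for 1 of the 12, against 15.5% of all tested miRNAs. Nearest to the threshold were miR-204-5p, abundant in kidney tubule, at 0.34 (adjusted p = 0.290, limma) and miR-194-5p, a proximal tubule miRNA, at 0.14 (adjusted p = 0.442, limma). miR-205-5p, which also targets Zeb1 and Zeb2, was detected on no array. Of 19 miRNAs listed for mesenchyme and fibrosis, 15 were tested, and 4 were called higher and 0 lower. Of the 15, 13 had a difference above 0, and the median was 0.10. Over all 194 tested miRNAs, 3.09% were called higher and 0 lower. The other tested miRNAs of that list were not called. miR-214-3p stood 0.69 higher, miR-199b-5p 0.50, and the miR-199a arms 0.49 (3p) and 0.47 (5p), all at an adjusted p of 0.0478 (limma). No miRNA of any kind was called higher in 16 of the 22 alternative settings, among them 6 of the 8 that left out 1 array (all but tacrolimus 2 and tacrolimus 3). This list was drawn up with earlier results of these data known and is not independent evidence of its direction.

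Across the series, 9.60% to 15.2% of probes were detected per array, fewest on tacrolimus 4, which also had the widest spread of negative controls (SD 20.01 against 4.45 to 10.5 on the rest). All 4 markers of proximal tubule and kidney epithelium were detected on all 8 arrays, and the liver marker on none. The summed linear signal of the 4 leukocyte markers, relative to the same percentile, was 0.378 to 0.617 in control and 0.598 to 0.871 in tacrolimus arrays. That of the 4 erythrocyte markers was 2.11 to 5.84 and 1.89 to 2.52. None of these markers was called in limma (0 of 7 tested, against 3.09% of all tested miRNAs). An unadjusted p under 0.05 in limma was found for 3 of 4 tested leukocyte and 3 of 3 tested erythrocyte markers, against 15.5% of all tested miRNAs. Their part in the members' values was not tested. Without control 1 and tacrolimus 4, added after seeing the data, 0 members were called and their median difference was 0.05.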

How the data were processed

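Per the file headers, Feature Extraction 10.7.3.1 made the spot values that the authors deposited, a linear intensity with background subtracted and not scaled between arrays, with flags for spots well above background, outlying or saturated. Their deposited value table equalled that software's total gene signal, also a linear intensity, in 100% of cells (tolerance 1e-06). limma is named, without a role, in the submitters' processing notes.

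With R 4.3.3 and limma 3.58.1, spots flagged as outliers (7.36% to 11.2% per array) and control spots were left out and spots of a probe averaged. A probe counted as detected where 0.5 or more of the spots kept were flagged well above background. Each array was divided by its 75th percentile over 252 probes, those detected on every array, floored at -5.96 (the median over arrays of the weakest detected probe) and taken to log2. Each miRNA was its brightest probe, tested if detected on at least 4 arrays (194 of 1023 miRNAs). limma compared groups (two-sided, no covariate, threshold 0.05, Benjamini-Hochberg). Correlations of 3p pairs, which were not planned beforehand, were tested by permuting arrays within groups (576 arrangements). Members and lists were chosen with earlier results of these data known. Text names all members, the called or 2 least-p miRNAs of each list, and the 3 miRNAs most like each 3p member. Other scalings, background, filters, floors, summaries, a block and left-out arrays were tried. The number of arrays limits the precision.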

Additional observations from a re-analysis of the deposited data

How the results depend on the processing

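No member was called in any of the 23 settings (0 in each), which included leaving out each array and the replicate block. Same-numbered arrays shared a slide column, and their deviations correlated at 0.104, 0.135, 0.107 and 0.099 for replicates 1 to 4. They were not treated as pairs because the last fell just short of 0.1. With the number as a block, 0 members were called and their adjusted p-values in limma were 0.559 to 0.949. In that setting 0 of all 194 tested miRNAs were called, against 6 without the block. The family median of 0.01 became 0.17 both without scaling and in the authors' deposited table, where the median of all tested miRNAs was 0.19. It ran from -0.03 to 0.05 when single arrays were left out. The differences of miR-200a-3p and miR-141-3p kept their sign in all settings tried, at 0.01 to 0.25 and 0.03 to 0.26. The 3p to 5p difference of miR-200a was 1.54 in the authors' deposited table, where miR-200a-5p is listed at 0.1 on tacrolimus 4. With detection on all 8 arrays required, 5 members were left. The gap between the median r of pairs within and across clusters, 0.58, ranged from 0.03 with the 75th percentile of all probes to 0.88 without control 2, and was 0.08 with the other probes.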

Other observations

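The tacrolimus arrays lay closer together than the control arrays for the members of the chromosome 4 cluster, on both arms. The SD of control arrays was 8.14 times that of tacrolimus arrays for miR-429-3p, 5.12 times for miR-200a-3p and 2.43 times for miR-200b-3p, while it was 0.984 times for miR-141-3p and 0.818 times for miR-200c-3p. For the dim 5p members of the chromosome 4 cluster it was 3.24 times (miR-200b-5p) and 1.67 times (miR-200a-5p). Over all 194 tested miRNAs the median ratio was 1.25, and 66.0% had the wider spread in control arrays. A ratio as high as that of miR-429-3p was seen for 1 of the 194, itself, and one as high as that of miR-200a-3p for 7. The pattern depended on the scaling: with median scaling the ratio was 1.59 for miR-429-3p and 0.445 for miR-200b-3p, and with the 75th percentile of all probes it was 0.561 for miR-429-3p and 0.615 for miR-200a-3p. The other probe gave 4.78 for miR-429-3p, 2.58 for miR-200a-3p and 0.904 for miR-200b-3p. With 4 arrays a group, no test was made.

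Among the 187 tested miRNAs outside the family, those most like each 3p member over the 8 arrays, after each group's mean was taken away, were picked by Pearson's r as a description. For miR-200c-3p they were miR-10b-5p (0.897), miR-362-3p (0.889) and miR-10a-5p (0.862), and the same names in the same order led for miR-141-3p (0.926, 0.902 and 0.878). For miR-200a-3p they were miR-219a-5p (0.944), miR-34b-5p (0.880) and miR-30a-5p (0.861), for miR-200b-3p miR-7a-5p (0.949), miR-361-5p (0.877) and miR-1906 (0.812), and for miR-429-3p let-7g-5p (0.916), miR-140-5p (0.891) and miR-574-5p (0.868). For the mean of the 5 members of the 3p arm they were miR-34b-5p (0.861), miR-152-3p (0.811) and miR-27a-3p (0.754). These are the highest of many values from arrays that share labelling and scaling.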
